A study of Mus musculus with 6 samples.

Results

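Integrins, laminins and the other genes of the basement membrane were compared between the hearts of mice whose Na/K-ATPase α1 differs in affinity for cardiotonic steroids (CTS). The group was chosen by gene symbol among protein-coding genes and holds 42 of the 54532 genes listed in the count table. It comprises 18 integrin α chains (Itga plus a number, 2b or a letter), 8 integrin β chains (Itgb plus a number), 11 laminin chains (Lama, Lamb and Lamc), the nidogens Nid1 and Nid2, the proteoglycans perlecan (Hspg2) and agrin (Agrn), and dystroglycan (Dag1). The RNA came from whole hearts, 3 per genotype, of males on a C57BL/6 background at an age of 3 months. The α1r/rα2s/s (resistant) hearts of mice 368, 369 and 370 carry the rodent α1 with its low CTS affinity. The α1s/sα2s/s (sensitive) hearts of mice 379, 380 and 381 carry an α1 substituted to bind CTS with high affinity in every tissue. All 6 mice share the sensitive α2. Counts of reads per gene do not show these substitutions, so the genotype was taken from the label.

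Each heart had between 19309312 and 20470065 counts in all, of which the 42 genes took 0.351% to 0.378% in α1r/rα2s/s hearts and 0.3% to 0.344% in α1s/sα2s/s hearts. Mitochondrially encoded genes took 23.4% to 24.4% and 25.0% to 26.0% of counts, so that neither share overlapped between the genotypes, and mouse 381 had the lowest share of the group and the highest mitochondrial share. Levels are given as CPM, the counts scaled to a common library size after TMM adjustment, and levels of different genes are compared only as CPM per kb of exon. Differences between genotypes were tested by the quasi-likelihood method of edgeR, with Benjamini-Hochberg adjustment over the 14866 genes that passed its filter on low counts. Of the 42 genes, 39 passed that filter. The other 3 were close to absent, with 2 counts of Lama1 in α1r/rα2s/s and 1 in α1s/sα2s/s hearts, 0 to 13 counts of Itgad per heart, and 2 to 12 counts of Itgae per heart. Hearts of the same genotype differed beyond counting error, with a chi-square per gene of 6.87 to 13.2. Heart 381 stood apart for these genes, with the lowest level of the 6 hearts for 19 of the 39 tested genes, against 22.6% of all tested genes. The part of the mitochondrial share in the differences was not tested. A fit without globin and mitochondrially encoded genes called 4 genes of the group, the same as with them. That fit leaves the counts of all other genes as they were, so it cannot decide this.

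Basement membranes are thin sheets of matrix that surround each cardiac myocyte and underlie the endothelium of every vessel. Laminins, trimers of an α, a β and a γ chain, polymerize into one network, type IV collagen forms another, and nidogens and perlecan bridge them. Cells hold on to these sheets through integrins, which are dimers of an α and a β chain that couple matrix to actin, and through dystroglycan, which binds laminin outside the cell and the dystrophin complex inside it. In the myocyte both systems sit at the costameres, where force passes from the sarcomere to the matrix.

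A few receptor and laminin genes were lower in α1s/sα2s/s hearts, and most of the group did not pass the test. The vascular laminin chain Lama4 and the integrin chains Itgb6, Itga6 and Itga4 fell in α1s/sα2s/s hearts, by log2 fold changes between -0.36 and -0.77, and no gene of the group rose, beside 0.780% of all tested genes that were called higher. These 4 of 39 tested genes, or 10.3%, stood beside 1.44% of all tested genes called in either direction and 0.659% called lower. DESeq2 called 7 of the 28 genes of the group to which it gave an adjusted p, the same 4 with Lamb1 and Hspg2 lower and Lama5 higher, beside 3.65% of all genes in either direction and 1.42% lower. At an unadjusted p under 0.05 in edgeR, 8 genes of the group were lower and 4 higher, against 7.27% and 7.19% of all tested genes. By sign alone 23 of the 39 genes were lower and 16 higher (median log2 fold change -0.08), where 51.6% of all tested genes were lower with a median of -0.01. Without mouse 381 the median of the group was -0.012, near that of all genes, with 22 genes lower and 18 higher of the 40 then tested. Among genes with at least 1 CPM, 22 of 37 of the group and 50.6% of all were lower. All 3 α1s/sα2s/s hearts lay below all 3 α1r/rα2s/s hearts for 9 of the 39 genes, against 9.98% of all genes, and above them for 7, against 10%. In RNA from whole hearts, fewer cells of a type and less RNA per cell cannot be told apart. Fewer genes of the group, and fewer of all genes, passed when a heart was left out than the 4 and 214 called with all 6 hearts. With 1 heart left out in turn, 0 to 2 genes of the group passed, while 80 to 158 of all genes did, and none of the group passed without mouse 368, 369 or 381.

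**Figure D1:**
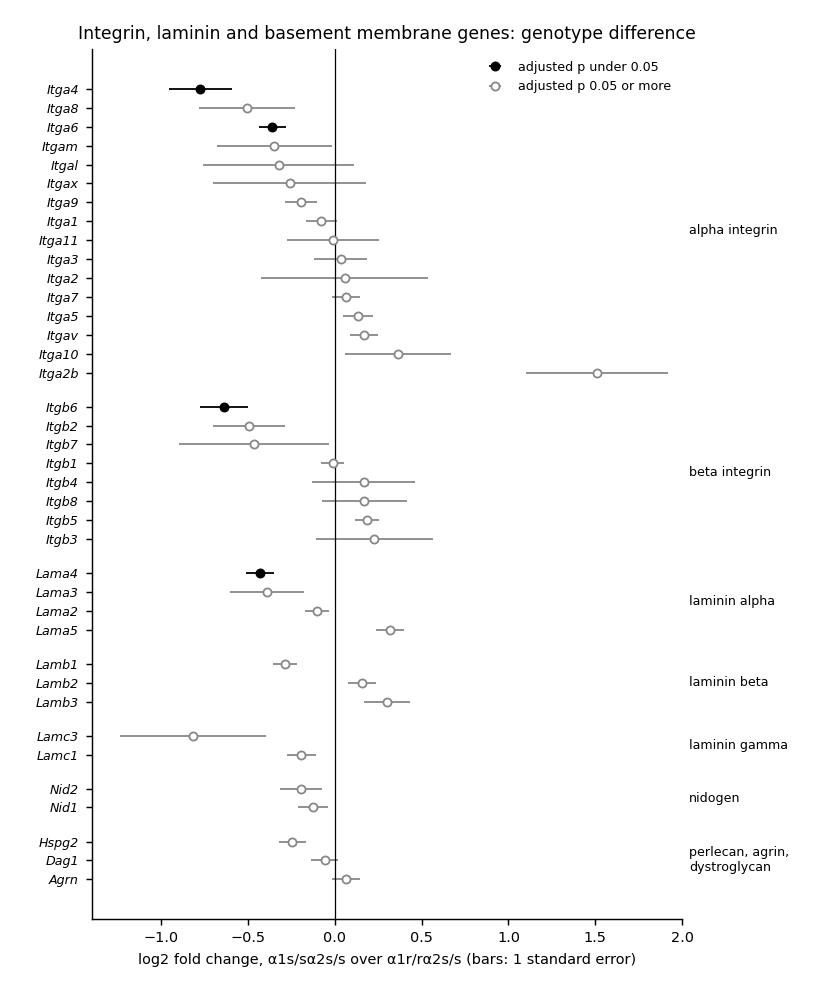
Log2 fold change of α1s/sα2s/s over α1r/rα2s/s hearts (x axis) for 38 of the 39 tested genes, grouped by class, with bars of 1 standard error and filled points for an adjusted p under 0.05 in edgeR. The 4 filled points, Itga4, Itga6, Itgb6 and Lama4, all lie to the left of 0, and Itga2b lies farthest to the right, at a log2 fold change of 1.51.

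**Figure D2:**
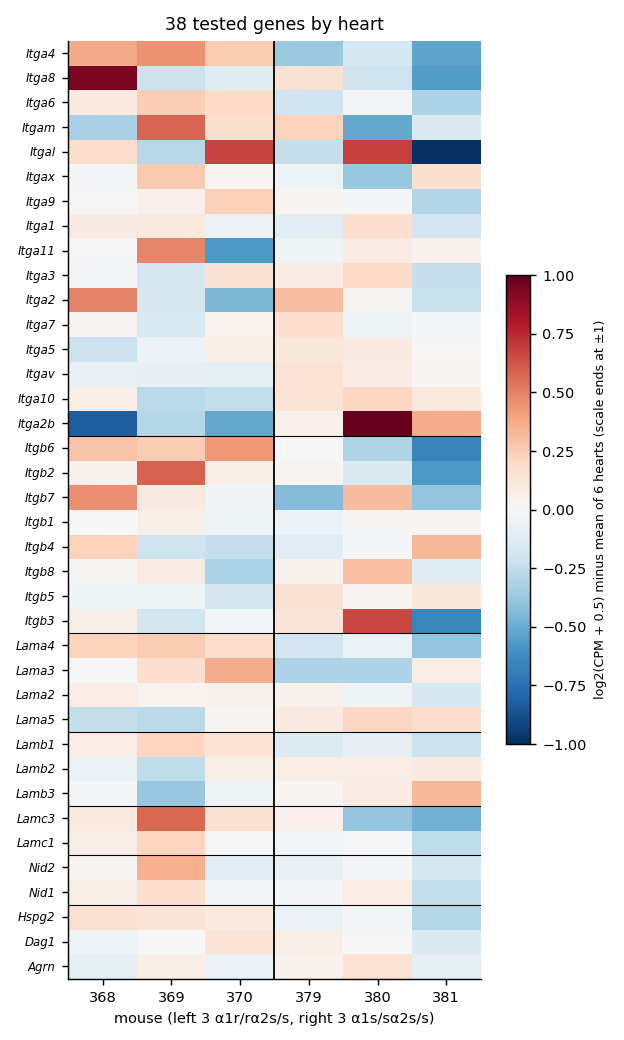
Deviation of each gene from its mean over the 6 hearts, as log2(CPM + 0.5), with 1 column per mouse (α1r/rα2s/s on the left, α1s/sα2s/s on the right) and colours ending at ±1. The column of mouse 381 holds the lowest value of its row for 19 of the 38 genes drawn.

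The sequences before the start sites of 4 genes that differed in edgeR or in DESeq2 are shown for context, 2 integrin chains called lower and the laminin chains Lamb1 and Lama5, called in opposite directions by DESeq2. They are the 250 bases before the RefSeq start site on GRCm38.p6, 5′ to 3′ on the strand of the gene, with capitals for the matches described next.
Itga4, chr2:79255176-79255425, strand +: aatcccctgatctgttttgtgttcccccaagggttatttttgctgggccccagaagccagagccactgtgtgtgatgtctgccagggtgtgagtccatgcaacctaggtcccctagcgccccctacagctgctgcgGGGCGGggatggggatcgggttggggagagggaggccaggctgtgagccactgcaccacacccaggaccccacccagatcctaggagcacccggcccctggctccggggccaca
Itgb6, chr2:60722604-60722853, strand -: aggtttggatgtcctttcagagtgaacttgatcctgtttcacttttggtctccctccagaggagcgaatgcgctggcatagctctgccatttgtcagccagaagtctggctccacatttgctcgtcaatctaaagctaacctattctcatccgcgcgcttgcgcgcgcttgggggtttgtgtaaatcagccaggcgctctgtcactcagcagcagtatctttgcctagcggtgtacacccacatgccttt
Lamb1, chr12:31265043-31265292, strand +: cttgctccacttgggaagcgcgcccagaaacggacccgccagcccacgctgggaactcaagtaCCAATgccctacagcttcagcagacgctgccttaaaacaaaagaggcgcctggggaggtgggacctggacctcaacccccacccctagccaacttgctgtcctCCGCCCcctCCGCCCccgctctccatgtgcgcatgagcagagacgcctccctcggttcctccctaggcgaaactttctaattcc
Lama5, chr2:180225860-180226109, strand -: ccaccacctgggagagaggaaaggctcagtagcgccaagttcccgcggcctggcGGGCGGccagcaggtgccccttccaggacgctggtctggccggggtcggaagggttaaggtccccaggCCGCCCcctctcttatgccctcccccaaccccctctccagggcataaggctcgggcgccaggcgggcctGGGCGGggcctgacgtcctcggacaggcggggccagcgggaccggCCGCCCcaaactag
The motifs searched on both strands were the GC box GGGCGG, the TATA box TATAAA, the CCAAT box CCAAT, the AP-1 site TGACTCA or TGAGTCA, and the ETS core CCGGAA. The stretch before Lama5 held 4 GC boxes and was 72.4% G and C, that before Lamb1 held 2 GC boxes and 1 CCAAT box, and that before Itga4 held 1 GC box. The stretch before Itgb6, at 52.0% G and C, held none of the 5. Promoters were listed for 27 of the 42 genes, 32 in all, and Itga6 and Lama4 had none listed. Of these 32, 15 held a GC box, or 46.9%, against 32.7% of the 32851 promoters listed. The median content of G and C was 60.8% in the 32 and 52.4% in all. Its part in the motif counts was not tested. A TATA box was in none of the 32 and in 12.4% of all, and a CCAAT box was in 7 of the 32, or 21.9%, and in 33.8% of all. An ETS core was in 2 of the 32 and in 12% of all, and an AP-1 site in 1 and in 4.46%. A match of letters does not show that a factor binds there.

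Of the 4 laminin α chains tested, Lama4 fell, Lama5 was higher by sign and Lama2 and Lama3 lower by sign. Lama4 (ENSMUSG00000019846, chromosome 10 of GRCm38 from 38965515 to 39110188) encodes the α4 chain of vascular basement membranes. It had 110.0, 113 and 106 CPM in α1r/rα2s/s hearts and 82.4, 90.2 and 71.8 CPM in α1s/sα2s/s hearts. The lowest α1r/rα2s/s heart thus lay above the highest α1s/sα2s/s heart, and the gene fell by 25.8% (log2 fold change -0.43, standard error 0.08, adjusted p = 0.0198 from edgeR). It kept an adjusted p under 0.05 without mouse 370 or mouse 380, and without each of the other hearts its adjusted p was between 0.0549 and 0.0709, with a log2 fold change of -0.35 without mouse 381. Lama5 (ENSMUSG00000015647, chromosome 2 of GRCm38 from 180176373 to 180225859) encodes the α5 chain, which is found in mature endothelial and many other basement membranes. It had 142, 139 and 169.6 CPM in α1r/rα2s/s hearts and 179, 194 and 189 CPM in α1s/sα2s/s hearts. All α1s/sα2s/s hearts lay above all α1r/rα2s/s hearts, with mouse 370 nearest to them. Its difference of 24.8% did not pass in edgeR (log2 fold change 0.32, standard error 0.08, adjusted p = 0.0694) and did in DESeq2 (adjusted p = 0.00604), and without mouse 370 it passed in edgeR (adjusted p = 0.0167). Lama2, the α2 chain of the sheet around muscle fibers, had the smallest log2 fold change of the 4 and its hearts overlapped, at 146 ± 1.88 to 136 ± 9.46 CPM (SD, n = 3, log2 fold change -0.10, standard error 0.07, adjusted p = 0.542 from edgeR). Lama3, the α3 chain of epithelia, was low, at 5.24 ± 0.750 to 3.99 ± 0.720 CPM (SD, n = 3), with overlapping hearts and an adjusted p of 0.418 in edgeR.

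The chains were also compared as shares of all laminin α chain RNA, each per kb of exon. The share of Lama5 was 40.1%, 39.6% and 44.9% in α1r/rα2s/s hearts and 49.5%, 51.3% and 54.1% in α1s/sα2s/s hearts. That of Lama4 was 29.4%, 30.3% and 26.6% in α1r/rα2s/s hearts and 21.5%, 22.5% and 19.4% in α1s/sα2s/s hearts. The mean share of Lama5 went from 41.5% ± 2.94 to 51.6% ± 2.32 (SD, n = 3) and that of Lama4 from 28.8% ± 1.92 to 21.1% ± 1.62 (SD, n = 3), while Lama2 went from 28.2% ± 1.22 to 26.0% ± 1.62 (SD, n = 3). The genotypes did not overlap for Lama5 and Lama4 (exact permutation tests, two-sided p = 0.1 for each, the smallest that 3 hearts against 3 allow) and overlapped for Lama2 (exact p = 0.2). Adjusted over the 8 shares tested for this group of genes, these exact p were 0.2, 0.2 and 0.32, so none could pass 0.05 in this design. With any 1 heart left out, the difference lay between 8.87 and 11.8 percentage points for Lama5 and between -8.69 and -6.73 for Lama4.

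No β or γ chain passed in edgeR, and Lamb1 and Lamb2 differed in sign. Lamb1 (ENSMUSG00000002900, chromosome 12 of GRCm38 from 31265234 to 31329644), the β1 chain, had 123, 135 and 128 CPM in α1r/rα2s/s hearts and 106, 110.0 and 100.1 CPM in α1s/sα2s/s hearts. Its hearts did not overlap, but its adjusted p was 0.0589 in edgeR (log2 fold change -0.29, standard error 0.07) and 0.00955 in DESeq2. Lamb2, the β2 chain and per kb the most abundant laminin chain (50.3 CPM per kb), had 292, 256 and 319 CPM in α1r/rα2s/s hearts and 321, 321 and 327 CPM in α1s/sα2s/s hearts. The groups touched without overlapping, with mouse 370 just under mouse 379, and the difference did not pass (log2 fold change 0.16, standard error 0.08, adjusted p = 0.383 from edgeR). The share of Lamb1 in the sum of Lamb1 and Lamb2 per kb was 20.5%, 24.4% and 19.7% in α1r/rα2s/s hearts and 16.8%, 17.4% and 15.8% in α1s/sα2s/s hearts, with no overlap (exact permutation test, two-sided p = 0.1, adjusted 0.2). Lamc1, the γ1 chain that most laminins share, had 231, 256 and 222 CPM in α1r/rα2s/s hearts and 216, 219 and 185 CPM in α1s/sα2s/s hearts, lower without overlap (log2 fold change -0.19, standard error 0.08, adjusted p = 0.298 from edgeR). Mouse 381 was the farthest from the α1r/rα2s/s hearts for Lama4, Lamb1 and Lamc1 alike, and without it the log2 fold change of Lamb1 was -0.25 and that of Lamc1 -0.12. Without mouse 369 that of Lamc1 was -0.13 and that of Lamb2 0.08.

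The chains of the epithelial laminin were scarce. Lamb3 had 15.5, 11.9 and 15.02 CPM in α1r/rα2s/s hearts and 15.9, 16.5 and 19.8 CPM in α1s/sα2s/s hearts, all α1s/sα2s/s hearts above, with an adjusted p of 0.314 in edgeR. Its log2 fold change of 0.30 was 0.19 without mouse 369 and 0.20 without mouse 381. Lamc3 was at or under 36 counts per heart, and its 3 α1s/sα2s/s hearts had 21, 12 and 11 counts against 23, 36 and 23 (log2 fold change -0.82, standard error 0.42, adjusted p = 0.395 from edgeR). Lama3 and Lamb3, chains of the same epithelial laminin, differed in sign, with log2 fold changes of -0.39 and 0.30.

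**Figure D3:**
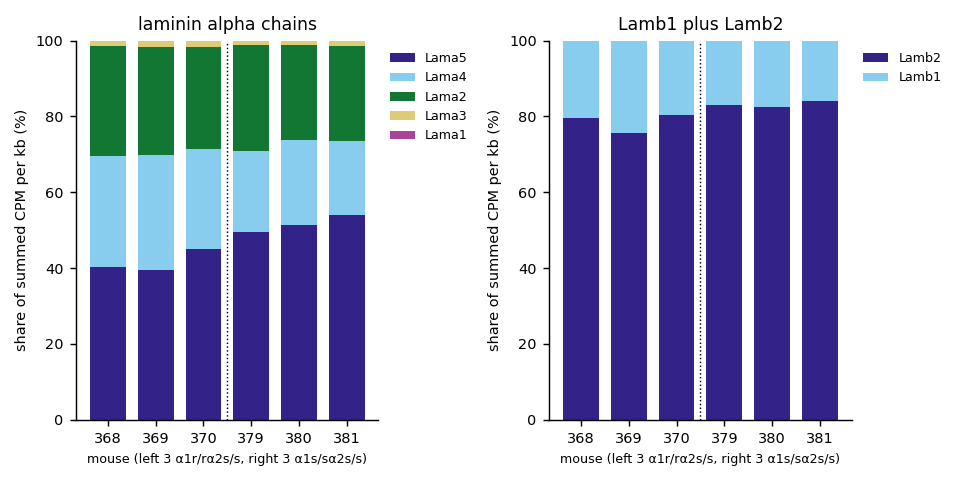
Share of each chain in the summed CPM per kb (y axis, percent) of the laminin α chains (left) and of Lamb1 plus Lamb2 (right), 1 bar per mouse, with α1r/rα2s/s hearts left of the dotted line. Lama5 takes a larger part and Lama4 a smaller part of every α1s/sα2s/s bar than of any α1r/rα2s/s bar, and Lamb1 a smaller part than Lamb2 throughout.

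The linkers of the sheet were lower or near the level of the α1r/rα2s/s hearts, and none passed in edgeR. Hspg2 (ENSMUSG00000028763, chromosome 4 of GRCm38 from 137468769 to 137570630) encodes perlecan, the large heparan sulfate proteoglycan of basement membranes. It had 629, 620.2 and 605 CPM in α1r/rα2s/s hearts and 540.3, 558 and 466 CPM in α1s/sα2s/s hearts. Every α1s/sα2s/s heart lay below every α1r/rα2s/s heart (log2 fold change -0.25, standard error 0.08, adjusted p = 0.145 from edgeR), and DESeq2 gave an adjusted p of 0.0259. Without mouse 381, its log2 fold change was -0.17. Nid1, the nidogen that made up 83.6% of nidogen RNA per kb in α1r/rα2s/s hearts and 84.2% in α1s/sα2s/s hearts, had 163, 176 and 154 CPM in α1r/rα2s/s hearts and 155, 165 and 132 CPM in α1s/sα2s/s hearts. The groups overlapped (log2 fold change -0.13, standard error 0.09), as they did for Nid2 (-0.20, standard error 0.12), with an adjusted p of 0.534 and 0.48 in edgeR. The log2 fold change was -0.04 for Nid1 without mouse 381 and -0.04 for Nid2 without mouse 369. The exons of Nid2 overlap those of Rtraf on the other strand over 437 bases, and whether the counting used strand is not given in the sources used here, so that reads there cannot be told apart. Agrn, which encodes agrin, a proteoglycan that binds both laminin and dystroglycan, overlapped as well, at 71.9 ± 4.41 to 75.2 ± 6.28 CPM (SD, n = 3, log2 fold change 0.07, standard error 0.08, adjusted p = 0.762 from edgeR).

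Of the 8 integrin β chains Itgb6 fell, and the most abundant, Itgb1, overlapped between the genotypes. Itgb1 (ENSMUSG00000025809, chromosome 8 of GRCm38 from 128685654 to 128733200), the β1 chain that pairs with most α chains, was the most abundant gene of the group per kb (125 CPM per kb). It had 511, 530.4 and 492 CPM in α1r/rα2s/s hearts and 489, 512 and 518 CPM in α1s/sα2s/s hearts. These values interleaved (log2 fold change -0.01, standard error 0.07, adjusted p = 0.955 from edgeR). The share of Itgb1 in β integrin RNA per kb was 76.7%, 77.1% and 77.4% in α1r/rα2s/s hearts and 74.4%, 76.9% and 77.0% in α1s/sα2s/s hearts, with overlap (exact permutation test, two-sided p = 0.4, adjusted 0.457).

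Itgb6 (ENSMUSG00000026971, chromosome 2 of GRCm38 from 60598292 to 60722643) encodes the β6 chain, which pairs with αv and binds the latent form of TGF-β. It had 28.6, 28.0 and 31.8 CPM in α1r/rα2s/s hearts and 23.3, 18.9 and 14.5 CPM in α1s/sα2s/s hearts. It fell by 35.8% (log2 fold change -0.64, standard error 0.14, adjusted p = 0.0319 from edgeR), and the α1s/sα2s/s hearts were spread from mouse 381 at the bottom to mouse 379 nearest the other genotype. Its adjusted p was 0.00913 without mouse 379 and between 0.0615 and 0.0923 without any other single heart, and its log2 fold change was -0.48 without mouse 381. No other RGD-binding chain passed in edgeR, nor in DESeq2, which gave no adjusted p for Itga2b, Itgb3 and Itgb8. Itgb5 had 106, 106 and 96.2 CPM in α1r/rα2s/s hearts and 122, 110.3 and 118 CPM in α1s/sα2s/s hearts, all α1s/sα2s/s hearts above (log2 fold change 0.19, standard error 0.07, adjusted p = 0.242 from edgeR). Itgav, the αv chain that partners both, had 34.2, 34.0 and 33.6 CPM in α1r/rα2s/s hearts and 39.8, 38.2 and 36.5 CPM in α1s/sα2s/s hearts, again without overlap (log2 fold change 0.17, standard error 0.08, adjusted p = 0.354 from edgeR). Itga5, the α5 chain of the fibronectin receptor, and Itgb8 overlapped between the genotypes (log2 fold change 0.13 and 0.17, edgeR adjusted p = 0.506 and 0.805). Of the 8 chains that bind the RGD motif or pair in such receptors, 6 were higher and 2 lower by sign, and Itgb6 was the only one to pass.

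Of the 5 laminin receptor genes, dystroglycan among them, Itga6 alone passed in edgeR, and in DESeq2, which gave no adjusted p for Itgb4. Itga6 (ENSMUSG00000027111, chromosome 2 of GRCm38 from 71745616 to 71858416) encodes the α6 chain, a laminin receptor of endothelium and epithelia. It had 108, 121 and 116 CPM in α1r/rα2s/s hearts and 87.98, 99.3 and 81.8 CPM in α1s/sα2s/s hearts. The groups did not overlap and it fell by 22.0% (log2 fold change -0.36, standard error 0.08, adjusted p = 0.0384 from edgeR). Its adjusted p was 0.0307 without mouse 380 and between 0.0773 and 0.14 without any other single heart, with a log2 fold change of -0.30 without mouse 381. Itga7, the α7 chain of the muscle laminin receptor and per kb the most abundant α chain (16.6 CPM per kb), had 136, 120.3 and 137 CPM in α1r/rα2s/s hearts and 151, 129.5 and 132 CPM in α1s/sα2s/s hearts. Its groups overlapped (log2 fold change 0.07, standard error 0.08, adjusted p = 0.758 from edgeR). The share of Itga6 in α integrin RNA per kb was 19.1%, 21.3% and 19.5% in α1r/rα2s/s hearts and 15.3%, 17.4% and 16.1% in α1s/sα2s/s hearts, without overlap (exact permutation test, two-sided p = 0.1, adjusted 0.2). That of Itga7 was 26.8%, 23.7% and 25.7% in α1r/rα2s/s hearts and 29.2%, 25.3% and 28.9% in α1s/sα2s/s hearts, with overlap (exact permutation test, two-sided p = 0.3, adjusted 0.4). Itga3 and Itgb4, chains of epithelial laminin receptors, were the lowest of these receptors per kb, at 1.87 and 0.337 CPM per kb. Both overlapped between the genotypes (log2 fold change 0.03 for Itga3 and 0.17 for Itgb4, edgeR adjusted p = 0.946 and 0.849).

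Itga4 (ENSMUSG00000027009, chromosome 2 of GRCm38 from 79255426 to 79333123) encodes the α4 chain of receptors for VCAM-1 and fibronectin, carried by leukocytes among other cells. It had 156, 164 and 135 counts in α1r/rα2s/s hearts and 85, 94 and 72 in α1s/sα2s/s hearts, which are 7.45, 7.83 and 6.78 CPM in α1r/rα2s/s hearts and 4.22, 4.94 and 3.73 CPM in α1s/sα2s/s hearts. The groups did not overlap and it fell by 41.5% (log2 fold change -0.77, standard error 0.18, adjusted p = 0.0498 from edgeR). It passed in none of the fits with 1 heart left out, where its adjusted p was between 0.0646 and 0.167, and its log2 fold change was -0.68 without mouse 381. Its adjusted p was 0.051 with RLE factors. Its exons overlap those of Cerkl on the other strand over 1124 bases, and Cerkl had 53 counts in the 6 hearts together against 706 for Itga4. Itga9, its closest relative and a receptor for tenascin, overlapped at 80.1 ± 7.25 to 70.1 ± 8.15 CPM (SD, n = 3, log2 fold change -0.19, standard error 0.09, adjusted p = 0.36 from edgeR).

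**Figure D4:**
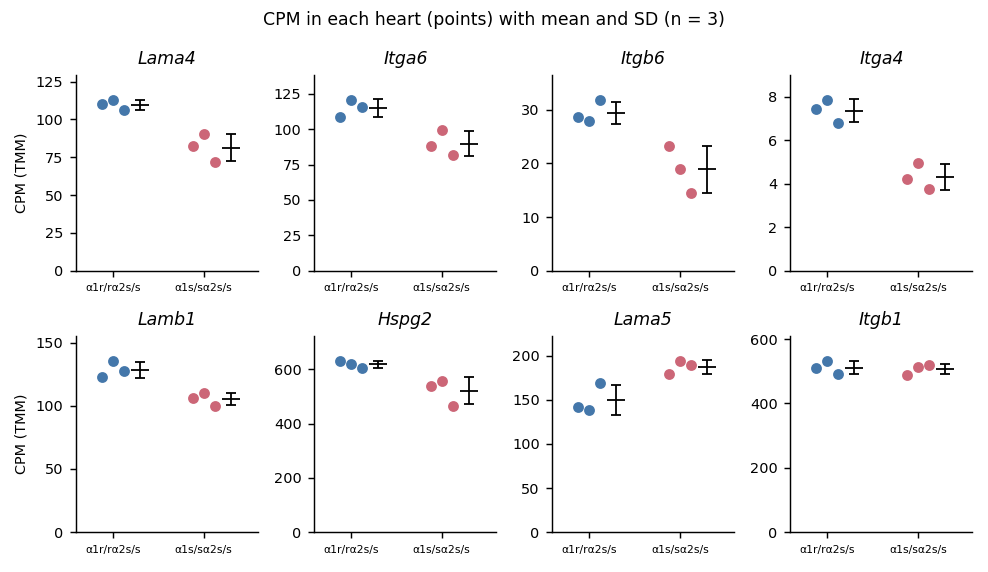
CPM (y axis, from 0) of 8 genes in each heart, with α1r/rα2s/s hearts in blue, α1s/sα2s/s hearts in red, and a black mark and bar for the mean and SD of 3 hearts. The genotypes are separate for 7 of the genes and interleaved for Itgb1, and mouse 381, the third red point, is the lowest for Lama4, Itga6, Itgb6, Itga4, Lamb1 and Hspg2.

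The chains that mark leukocytes were low and lower by sign without passing. Itgb2, the β2 chain of leukocytes, had 7.11, 10.7 and 7.18 CPM in α1r/rα2s/s hearts and 7.05, 6.21 and 4.46 CPM in α1s/sα2s/s hearts. All α1s/sα2s/s hearts lay below, with mouse 379 close to mouse 368 (log2 fold change -0.49, standard error 0.21, adjusted p = 0.292 from edgeR). The difference leaned on single hearts, at -0.27 without mouse 369 and -0.33 without mouse 381. Of the 7 leukocyte chains, 5 were tested, and all 5 had a log2 fold change below 0, between -0.49 and -0.26, with adjusted p from 0.292 to 0.839 in edgeR. Each of the other 4, Itgam, Itgal, Itgax and Itgb7, was under 90 counts in every heart and overlapped between the genotypes. The exons of Itgam overlap those of Gm49368 on the same strand over 3450 bases, so its counts are uncertain.

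The largest log2 fold change of the group belonged to Itga2b, the αIIb chain of platelets and megakaryocytes, at 1.51 (standard error 0.41). It had 14, 25 and 19 counts in α1r/rα2s/s hearts and 33, 81 and 42 in α1s/sα2s/s hearts. The hearts did not overlap, with mouse 380 far above the other two of its genotype, and the adjusted p was 0.0879 in edgeR and 0.00288 when every gene with a count was tested. Itgb3, its partner in platelets, had 2.86, 2.34 and 2.66 CPM in α1r/rα2s/s hearts and 3.03, 4.63 and 1.56 CPM in α1s/sα2s/s hearts, with mouse 380 the highest and mouse 381 the lowest of all 6 (log2 fold change 0.23, standard error 0.34, adjusted p = 0.811 from edgeR). Of 8 platelet marker genes, 3 were tested and none passed in edgeR, or in DESeq2 where it gave an adjusted p. At an unadjusted p under 0.05 in edgeR 1 was higher, against 7.19% of all tested genes. The log2 fold change was 2.82 for Ppbp, 0.28 for Gp1ba and -0.25 for Pf4, with edgeR adjusted p of 0.0814, 0.682 and 0.581, and Gp1bb had no count in any heart. The summed platelet markers overlapped, at 13.6 to 18.4 CPM in α1r/rα2s/s hearts and 13.0 to 25.9 CPM in α1s/sα2s/s hearts, and their part in the values of Itga2b was not tested.

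The collagen-binding α chains showed no difference that passed. Itga1, a collagen receptor of muscle, vessel and fibroblast, was the most abundant of the 4 at 5.21 CPM per kb and overlapped (log2 fold change -0.08, standard error 0.09, adjusted p = 0.75 from edgeR). Itga10 had 2.05, 1.53 and 1.56 CPM in α1r/rα2s/s hearts and 2.18, 2.31 and 2.13 CPM in α1s/sα2s/s hearts, without overlap but at 31 to 44 counts per heart (log2 fold change 0.36, standard error 0.30, adjusted p = 0.628 from edgeR), and its exons overlap those of Gm42957 on the same strand over 1739 bases. Itga11 and Itga2 overlapped (log2 fold change -0.01 and 0.06, edgeR adjusted p = 0.99 and 0.971). Itga8, an RGD receptor of mesenchymal cells, was lower by sign (log2 fold change -0.50, edgeR adjusted p = 0.423). It rested on 1 heart, since mouse 368 had 16.4 CPM and the other 5 hearts between 5.50 and 9.33 CPM, and without mouse 368 its log2 fold change was -0.01.

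Dystroglycan and its complex differed little from α1r/rα2s/s hearts. Dag1 (ENSMUSG00000039952, chromosome 9 of GRCm38 from 108204634 to 108263958) was the second gene of the group by level per kb (56.6 CPM per kb), overlapping with Lamb2 in range. It had 347, 358 and 396 CPM in α1r/rα2s/s hearts and 376, 358 and 324 CPM in α1s/sα2s/s hearts. The groups overlapped (log2 fold change -0.06, standard error 0.08, adjusted p = 0.793 from edgeR). Of 15 genes of the dystrophin complex none passed, with 8 lower and 7 higher by sign and a median of -0.02 on the log2 scale. At an unadjusted p under 0.05 in edgeR 3 were higher, against 7.19% of all tested genes. DESeq2 called 1 higher, where it called 3.65% of all genes in either direction. Sgca, which encodes α-sarcoglycan, was higher by sign (log2 fold change 0.20, edgeR adjusted p = 0.254). Of the enzymes that build the laminin-binding sugar of dystroglycan, 16 were tested and none passed in edgeR or DESeq2, with a median of 0.02. At an unadjusted p under 0.05 in edgeR 1 was lower, against 7.27% of all tested genes. Pomk, the kinase of that sugar, had the smallest p, at 10.3 ± 0.474 to 7.18 ± 0.384 CPM (SD, n = 3) without overlap (adjusted p = 0.0879 from edgeR), followed by Tmem5 and Pomgnt1 (log2 fold changes 0.19 and 0.14, adjusted p = 0.417 and 0.426 from edgeR).

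Inside the cell, 1 of 29 tested genes of the proteins that couple integrins to actin passed, and it was lower. This was 3.45% of the list, against 0.659% of all tested genes called lower. Flna, which encodes filamin A, a crosslinker of actin that binds β chains, fell from 184 ± 7.99 to 144 ± 10.6 CPM (SD, n = 3, log2 fold change -0.35, standard error 0.07, adjusted p = 0.0289 from edgeR). By sign 21 of the 29 were lower, against 51.6% of all tested genes, with a median log2 fold change of -0.08. Zyx, Vcl and Nrap, of zyxin, vinculin and a muscle-specific anchoring protein, came next by p, with -0.31, -0.23 and 0.27 on the log2 scale (edgeR adjusted p = 0.125, 0.184 and 0.191). Flna passed without mouse 370 or mouse 380 and missed without any of the other 4 hearts.

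Outside the cell, other basement membrane genes and other integrin ligands had called genes that were all lower. Of 24 other basement membrane genes, Col15a1 and Hmcn1 passed, 8.33% of the list, against 0.659% of all tested genes called lower. By sign 16 of the 24 were lower, against 51.6% of all tested genes, with a median of -0.20. Col15a1 encodes a collagen of the outer face of the basement membrane (log2 fold change -0.58, adjusted p = 0.00331 from edgeR). Hmcn1, of hemicentin 1, fell from 59.4 ± 6.62 to 37.1 ± 4.95 CPM (SD, n = 3, log2 fold change -0.68, standard error 0.11, adjusted p = 0.00546 from edgeR). Both passed in all 6 fits that omitted a heart. DESeq2 called 3 genes of the list, all lower, where it called 1.42% of all genes lower. The list summed to 2003 to 2269 CPM in α1r/rα2s/s hearts and 1672 to 1965 CPM in α1s/sα2s/s hearts, without overlap. Col4a1, Col4a2 and Sparc had the highest levels of the list, and none of them passed in edgeR, while DESeq2 called Col4a1 (adjusted p = 0.0499). Mouse 381 was the lowest heart for each of them. Pxdn, whose peroxidase crosslinks type IV collagen, was next by p (log2 fold change -0.25, adjusted p = 0.143 from edgeR). Of 22 tested ligands, Fn1 passed, or 4.55%, with 16 lower by sign and a median of -0.22, beside the same shares of all genes. Fn1 encodes fibronectin, a ligand of the receptors that hold the α4, α5 and αv chains, and fell from 70.0 ± 7.77 to 50.4 ± 4.52 CPM (SD, n = 3, log2 fold change -0.47, standard error 0.09, adjusted p = 0.0222 from edgeR). It passed without mouse 370 or mouse 380 and missed without any of the other 4 hearts. DESeq2 called 3 of the ligands, all lower, beside the same 1.42% of all genes. These lists were drawn up with matrix genes of these same hearts known to be lower, so that their direction is no independent evidence.

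Markers of the cells that make basement membrane were measured beside these genes. Mural markers, of pericytes and smooth muscle, were lower by sign for all 10 genes, with a median log2 fold change of -0.29 and a summed level of 1467 to 1541 CPM in α1r/rα2s/s hearts and 1296 to 1465 CPM in α1s/sα2s/s hearts, which did not overlap. None of them passed in edgeR, and DESeq2 called 1, which was lower, where it called 1.42% of all genes lower. At an unadjusted p under 0.05 in edgeR 5 were lower, against 7.27% of all tested genes. Of 10 endothelial markers 8 were lower, with a median of -0.08 and summed levels of 1306 to 1518 CPM in α1r/rα2s/s hearts and 1145 to 1399 CPM in α1s/sα2s/s hearts, which overlapped. Kdr, the VEGF receptor of endothelium, had the smallest p of these (log2 fold change -0.50, adjusted p = 0.0694 from edgeR), while Tie1, an endothelial receptor kinase, was higher by sign (0.12 on the log2 scale, edgeR adjusted p = 0.481).

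Leukocyte markers, mostly of macrophages, were lower for 9 of 10 genes, with a median of -0.37 and summed levels of 417 to 671 CPM in α1r/rα2s/s hearts and 359.6 to 482 CPM in α1s/sα2s/s hearts, which overlapped. Ptprc, which all leukocytes carry, had an edgeR adjusted p of 0.111, and its log2 fold change of -0.58 stood beside -0.77 for Itga4 and -0.49 for Itgb2, with the limits on Itgb2 given above. The 10 markers of lymphocytes and neutrophils were scarce, with 6 tested, all lower by sign, and a summed level of 6.98 to 11.4 CPM in α1r/rα2s/s hearts and 2.85 to 10.4 CPM in α1s/sα2s/s hearts. Fibroblast markers were lower for 7 of 10, with a median of -0.13 and overlapping sums of 2163 to 2494 CPM in α1r/rα2s/s hearts and 2166 to 2525 CPM in α1s/sα2s/s hearts. Cardiomyocyte markers were higher for 8 of 10, with a median of 0.08, and summed to 58887 to 72624 CPM in α1r/rα2s/s hearts and 65145 to 70981 CPM in α1s/sα2s/s hearts. None of the markers on these 6 lists passed in edgeR. At an unadjusted p under 0.05 in edgeR there were 2 endothelial, 4 leukocyte, 2 lymphocyte or neutrophil, 4 fibroblast and 0 cardiomyocyte markers. All of these were lower, against 7.27% of all tested genes that were lower at that threshold. DESeq2 called 1 leukocyte and 1 fibroblast marker besides the mural one, all lower, where it called 1.42% of all genes lower. The collagen genes Col1a1, Col1a2 and Col3a1 are on the fibroblast list and also among the other integrin ligands. Each had an unadjusted p under 0.05 in edgeR, and Col1a1 was the fibroblast marker that DESeq2 called. The fibroblast and ligand lists are therefore not separate evidence. The part of the marked cells in the differences of the integrin and laminin genes was not tested.

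Markers of scarcer cells were measured as well. Of the nerve and Schwann cell markers 6 of 8 tested were higher by sign, with a sum of 26.6 to 35.1 CPM in α1r/rα2s/s hearts and 32.1 to 33.8 CPM in α1s/sα2s/s hearts. Of the epicardial markers 2 were tested, with a sum of 5.92 to 10.7 CPM in α1r/rα2s/s hearts and 5.19 to 8.89 CPM in α1s/sα2s/s hearts, and none on either list passed in edgeR, DESeq2 or at an unadjusted p under 0.05. The adipocyte list summed to 340.5 to 427 CPM in α1r/rα2s/s hearts and 472 to 532 CPM in α1s/sα2s/s hearts without overlap, almost all of it Fabp4, which heart endothelium also expresses and which rose (log2 fold change 0.39, adjusted p = 0.0358 from edgeR, passing in 1 of 6 fits with a heart omitted). Adipoq and Plin1, which define adipocytes, were under 1 CPM in mean in both genotypes. All 4 tested genes of the adipocyte list were higher by sign, with a median log2 fold change of 0.71. Of these, 2 had an unadjusted p under 0.05 in edgeR, against 7.19% of all tested genes that were higher at that threshold. Which cells this RNA came from was not tested.

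By level per kb of exon, the group spanned from Itgb1 at 125 CPM per kb to Itga2 at 0.126 among the tested genes. Dag1, Lamb2, Hspg2, Itgb5, Lamc1 and Nid1 followed Itgb1, between 22.7 and 56.6 CPM per kb, and each of these overlapped its neighbour in the order, while Itgb1 overlapped none. Of the 4 called genes, Itga6 at 11.3 and Lama4 at 7.92 CPM per kb were of middle rank, Itgb6 was at 3.40 and Itga4 at 0.417. The called genes therefore did not include the most abundant chain of any integrin or laminin class.

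**Figure D5:**
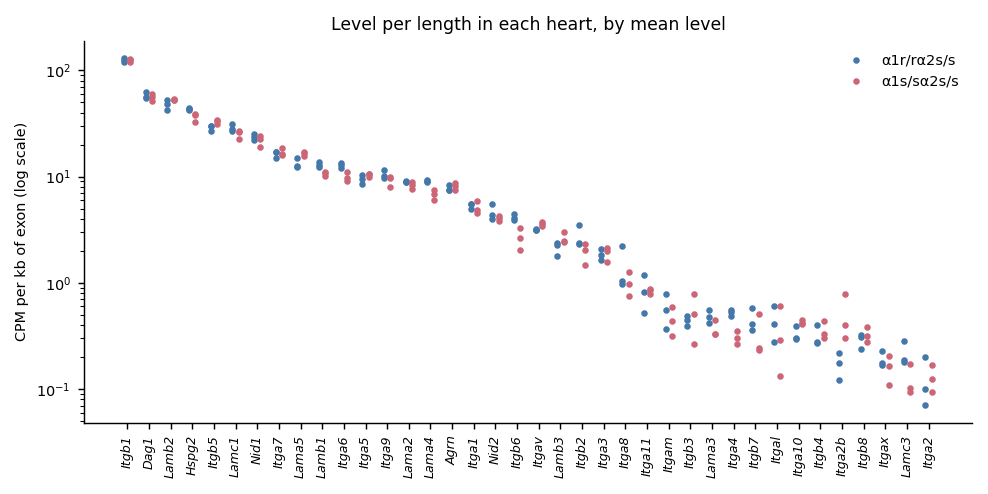
Level per kb of exon (y axis, log scale) of 38 tested genes in each heart, ordered by mean level, with α1r/rα2s/s hearts in blue and α1s/sα2s/s hearts in red. Itgb1 stands above all other genes at 125 CPM per kb, and the order ends with Itga2 at 0.126.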

How the data were processed

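The authors had total RNA from 6 whole hearts sequenced by a company, which did the quality control, mapping and counting. The deposited counts per gene are raw, with 1 column per heart. The submitters' processing notes name fastp, STAR, featureCounts and mm10, and versions and strand setting are not given in the sources used here. The other deposited table holds the authors' own comparison by DESeq2 (fold changes and p-values) and was not used. The gene length in the count table equals the exon union of GENCODE M21 for all 42 genes, and their coordinates are identical there.

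Counts were analysed in R 4.3.3 with edgeR 4.0.16 (TMM, filterByExpr with minimum count 10 and minimum total 15, quasi-likelihood test, Benjamini-Hochberg over 14866 genes, threshold 0.05). The standard error was the size of the log2 fold change divided by the square root of F. The biological coefficient of variation was 11.1%. Total counts of 19309312 to 20470065 limit genes under about 100 counts by counting error. DESeq2 1.42.0, limma 3.58.1 (voom), other scalings and filters and leaving out each heart were alternatives. Labels name separate mice. Tests were checked on simulated data with 200 genes changed by a log2 fold of 1, of which edgeR recovered 86.5%. Smaller changes, such as most of those reported here, were not simulated. Values per heart are given for genes called by edgeR or DESeq2, for those without overlap and an absolute log2 fold change of at least 0.2, and for the most abundant of each class, and others were named after their values were seen. The genes and lists were chosen with earlier results of these data known. Promoters came from RefSeq on GRCm38.p6. Some genes of the group and lists are counted in the totals but not reported here.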

Additional observations from a re-analysis of the deposited data

How the results depend on the processing

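With edgeR, 4 of the integrin, laminin and basement membrane genes passed, all lower. DESeq2 gave 7 and testing every gene with a count 8, of which 6 were lower in each, and over all genes these called 3.65% and 2.19%, against 1.44%. The remaining 6 alternatives with all hearts gave between 3 and 6, with 1.38% to 1.8% of all genes. Leaving out 1 heart gave between 0 and 2 passing genes, and between 0 and 2 passing lower. The number lower by sign stayed between 22 and 25, the number higher between 15 and 18, and the median log2 fold change between -0.11 and -0.012, nearest 0 without mouse 381. Itga6, Itgb6 and Lama4 passed under all 8 alternatives that kept every heart, and Itga4 missed with RLE factors (adjusted p = 0.051) and limma voom (0.0538). The log2 fold change of genes near 0 changed sign when 1 heart was left out, between -0.0035 and 0.11 for Itga7, between -0.035 and 0.018 for Itgb1 and between -0.10 and 0.0058 for Dag1. Integrin adaptors gave 1 called gene, 2 when every gene with a count was tested, and 0 to 1 with a heart left out. The dystrophin complex gave 0, and 1 in DESeq2, without the filter and with edgeR's robust prior. Other basement membrane genes gave 2, and 4 without the filter. Other ligands gave 1, and 3 in DESeq2, 5 without the filter, 2 with upper-quartile factors, at least 10 counts in every heart, no globin or mitochondrial genes, the robust prior or limma voom, and 0 to 2 with a heart left out. The causes were not tested, other than that fits without a heart use fewer samples. Upper-quartile factors turned 9 lower and 7 higher genes without overlap into 10 and 6. No paired analysis was possible because the labels give no litter or pair for the mice. Groups of 3 hearts are too small for an outlier test.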
